A study of Mus musculus with 16 samples.

Results

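The subject here is the genes of the cytotoxic granule, the granzymes and perforin, as measured in mice with a mutation of EMP3, a tetraspan membrane protein related to PMP22. The members were the probes whose gene symbol in the platform annotation is a granzyme (Gzm followed by a letter from a to n) or Prf1, and 3 of 20794 probes, for 3 of 9030 named genes, qualified: probe 4302 for Gzma (NM_010370), probe 7097 for Gzmc (NM_010371) and probe 14763 for Gzmm (NM_008504). The RefSeq gene table lists 10 mouse granzyme genes and Prf1, so 8 of these 11 genes, among them Gzmb and Prf1, have no probe under their name in this annotation. Membership was by symbol, but the set as a whole was chosen by a measured value, the high spleen log2 ratio of the Gzmc probe. The spleen value of Gzmc is therefore given as a description with no test.

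Granzymes are serine proteases that killer lymphocytes, the natural killer (NK) cells and cytotoxic T cells, store in granules. On contact with a target cell the granules are emptied, perforin forms pores in the target membrane, and the granzymes enter and start cell death. Granzyme A (Gzma) cleaves after basic residues and is carried by resting NK cells. Granzyme C (Gzmc) appears mainly after prolonged activation of cytotoxic lymphocytes, and granzyme M (Gzmm), which cleaves after methionine or leucine, is found largely in NK cells. In the RefSeq table Gzmc lies between Gzmf and Gzmb on a chromosome with 7 granzyme genes, of which only Gzmc has a named probe. Whether the Gzmc spot separates its transcript from those of these relatives was not tested, since no probe sequence was used here.

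RNA came from spleen and thymus of 4 male EMP3 mutant mice at 17 weeks, the same animals for both organs, and was hybridised on 16 two-colour cDNA arrays against a pool of wild-type RNA of the same organ from male mice of that age. Each mouse had 2 arrays per organ with the dyes exchanged, and the mean of both arrays was 1 replicate. The series title and design text name brain where the sample labels name spleen, and the sample labels were followed. The labels do not give the kind of mutation, the strain or the littermates, and the pool is the only control, so the spread between wild-type mice was not measured. The organs are whole tissues, in which fewer cells of a type and less RNA per cell cannot be told apart. The files hold ratios without intensities, so depth is unknown, the organs could not be checked against the level of their markers, and the number of arrays limits the precision.

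The values are log2 ratios, read as mutant over pool. Neither the log base nor the direction is stated, and if the pool is the numerator every sign below turns. On an array 20046 to 20639 probes had a value. The sign on the arrays with mutant RNA in Cy3 was taken as already turned to match the Cy5 arrays. That reading is not settled: the 2 arrays of a mouse correlated across probes at 0.05 to 0.42 in spleen but at -0.44 to -0.25 in thymus mice 1, 3 and 4. Each member is therefore also given with the Cy3 arrays turned. The thymus pair of mouse 2 correlated at -0.92, with nearly mirrored values, and was left out, which leaves 4 spleen and 3 thymus mice. The 2 probes of Emp3, the targeted gene, had spleen means of 0.20 ± 0.25 and 0.27 ± 0.38 (SD, n = 4), and neither passed the threshold (limma, adjusted p = 0.204 and 0.214). Probes that share a gene symbol did not share their spleen ratio (Spearman's rho = -0.000397 across 4431 pairs more than 400 IDs apart, which are not independent), so a gene name below stands for the probe that carries it.

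In spleen the Gzma probe was higher in every mutant mouse. Its ratios on the Cy5 and Cy3 arrays were 0.289 and 0.281 in mouse 1, 0.35 and 0.383 in mouse 2, 0.508 and 0.592 in mouse 3, and 0.872 and 0.291 in mouse 4. All 8 arrays lay above 0, and in mice 1 to 3 both dye orientations gave nearly the same value, while in mouse 4 they lay apart. The per-mouse log2 ratios were 0.285, 0.37, 0.55 and 0.58, with a mean of 0.45 ± 0.14 (SD, n = 4), or 1.36-fold. In limma, fitted to all spleen probes, Gzma was higher with an adjusted p of 0.0107 (95% interval of the log2 ratio 0.26 to 0.63). Flipping the signs of the mice in an exact two-sided permutation test gave p = 0.125, the smallest value 4 mice allow. The increase was not exceptional in this tissue, since 13.3% of the 20127 tested probes had a larger mean ratio in size. The call ended without mouse 4 (0.40, adjusted p = 0.0620 in limma) and when the variance of the pool was added (adjusted p = 0.0599), and over its 13 alternatives the adjusted p ran from 0.00106 to 0.675. With the Cy3 arrays turned, the agreement between orientations becomes a cancellation, and the mean was 0.06 ± 0.16 (SD, n = 4; limma, adjusted p = 0.675).

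**Figure D1:**
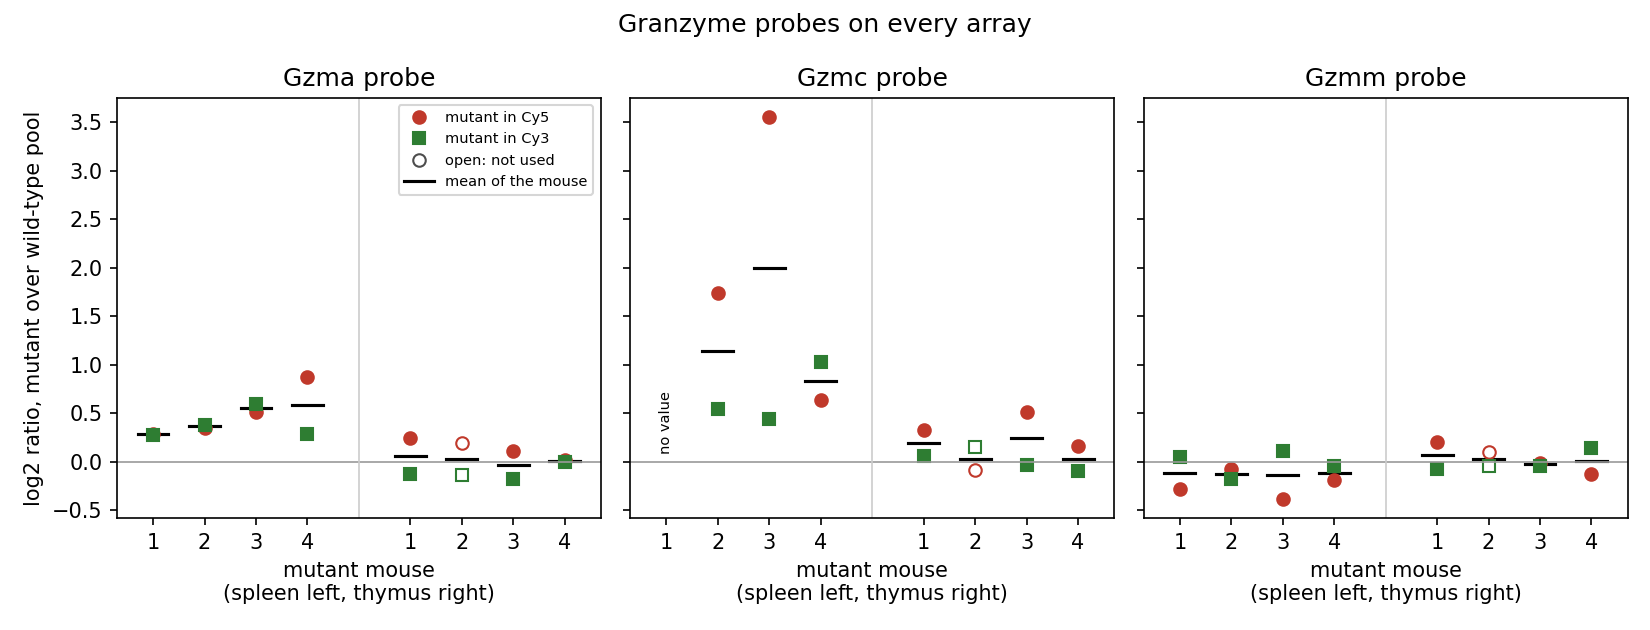
The log2 ratio of the Gzma, Gzmc and Gzmm probes on every array (vertical axis, mutant over wild-type pool) for mice 1 to 4, with spleen on the left and thymus on the right of each panel. Circles are arrays with the mutant RNA in Cy5, squares those with it in Cy3, lines the mean of a mouse, and open symbols the thymus arrays of mouse 2, which were not used; Gzma lies above 0 on all 8 spleen arrays and Gzmc on all 6 spleen arrays with a value in the mice used.

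The Gzmc probe had the highest ratio of the 3, and the most uneven one. On the Cy5 and Cy3 arrays it was at 1.742 and 0.546 in mouse 2, at 3.55 and 0.438 in mouse 3, and at 0.635 and 1.025 in mouse 4. Mouse 1 gave no ratio: its Cy3 array had no entry, and its Cy5 array held 15.599, a constant that 80 probes of that array share and that was treated as missing. The 6 arrays with a value all lay above 0, and the highest, mouse 3 in Cy5, was at 3.55 against a next highest of 1.742. The per-mouse values were 1.14, 1.99 and 0.83, which gives 1.32 ± 0.60 (SD, n = 3), or 2.50-fold. As deposited, that mean had rank 7 from the top among 20127 probes, and with the Cy3 arrays turned rank 216. The mean over Cy5 arrays was 1.98 and that over Cy3 arrays 0.67; the Cy5 array was the higher one in mice 2 and 3 and the lower one in mouse 4. Without mouse 3 the mean of the remaining mice was 0.99. With the Cy3 arrays turned, the mice were at 0.60, 1.56 and -0.195, and they no longer shared a direction (0.65 ± 0.88, SD, n = 3).

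The Gzmm probe did not follow. Its Cy5 and Cy3 ratios in spleen were -0.277 and 0.048 in mouse 1, -0.071 and -0.178 in mouse 2, -0.385 and 0.114 in mouse 3, and -0.191 and -0.045 in mouse 4. Of the 8 arrays 6 lay below 0. The mean ratios of the mice were -0.11, -0.12, -0.14 and -0.12, much closer to each other than the arrays they come from. Their mean was -0.12 ± 0.01 (SD, n = 4), and it did not pass the threshold (limma, adjusted p = 0.164; 95% interval -0.26 to 0.02). That interval lies below the one for Gzma. With the Cy3 arrays turned, Gzmm was at -0.11 ± 0.13 (SD, n = 4; limma, adjusted p = 0.414).

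Beside the high Gzmc probe, Gzma thus had a smaller ratio above 0, and Gzmm one below 0 that did not pass. Within a spleen, the log2 ratio of Gzmc exceeded that of Gzma by 0.78 in mouse 2, 1.44 in mouse 3 and 0.25 in mouse 4. By its means, mouse 4 had the highest Gzma ratio and the lowest Gzmc ratio of these mice. Its Gzma mean of 0.58 was close to the 0.55 of mouse 3, and its Gzma arrays stood at 0.872 and 0.291. The order of the mice under each probe is therefore uncertain. The Gzma ratio exceeded that of Gzmm in 4 of 4 mice, by 0.40, 0.49, 0.69 and 0.70. Of Gzma and Gzmm, the 2 members tested, 1 passed an adjusted p of 0.05 in limma, Gzma, beside 25.3% of all tested spleen probes (13.4% higher and 11.9% lower). Since the set was taken up for its spleen ratio, nothing is read from that count.

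**Figure D2:**
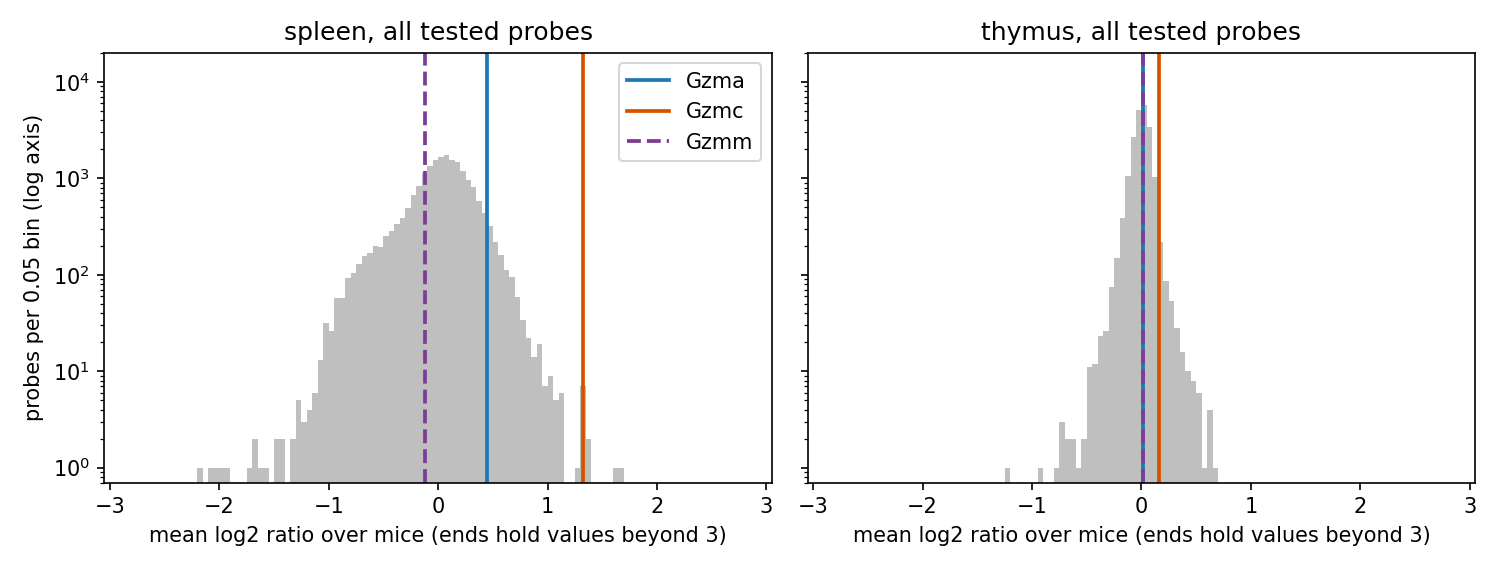
The number of probes per bin of the mean log2 ratio over mice (vertical log axis) for all tested probes in spleen (left, 4 mice, or 3 where 1 had no value, as for Gzmc) and thymus (right, 3 mice), with vertical lines at the 3 granzyme probes. In spleen Gzmc lies at 1.32 in the upper tail, Gzma at 0.45 and Gzmm at -0.12; in thymus, where all probes lie closer to 0, Gzma at 0.01 and Gzmm at 0.02 coincide and Gzmc is at 0.16.

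In thymus none of the 3 members passed the threshold. Most thymus lymphocytes are immature T cells without cytotoxic granules. The Gzma probe had Cy5 and Cy3 ratios of 0.242 and -0.126 in mouse 1, 0.109 and -0.174 in mouse 3, and 0.016 and 0 in mouse 4. The orientations therefore had opposite signs in mice 1 and 3, unlike in spleen. Its mean was 0.01 ± 0.05 (SD, n = 3; limma, adjusted p = 0.959; 95% interval -0.10 to 0.13). With the Cy3 arrays turned, the mice were at 0.18, 0.14 and 0.01, all above 0, with a mean of 0.11 ± 0.09 (SD, n = 3; limma, adjusted p = 0.494). The order of the organs for Gzma thus depended on the reading: 0.45 in spleen and 0.01 in thymus as deposited, and 0.06 and 0.11 with the Cy3 arrays turned.

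The Gzmc probe was at 0.331 and 0.062 in thymus mouse 1, at 0.515 and -0.032 in mouse 3, and at 0.16 and -0.093 in mouse 4, in Cy5 and Cy3. All 3 Cy5 arrays were above 0, and 2 of 3 Cy3 arrays below. The mean was 0.16 ± 0.11 (SD, n = 3) with every mouse above 0, and only 1.87% of the 20130 tested thymus probes had a higher mean. Its unadjusted p was 0.0364 and its adjusted p 0.866 in limma, so it did not pass the threshold. Gzmc was the member with the highest mean in both organs, and its thymus mean kept its sign with the Cy3 arrays turned, at 0.18 ± 0.08 (SD, n = 3; limma, adjusted p = 0.456). The exact sign-flip p was 0.25, the smallest that 3 mice allow.

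The Gzmm probe was at 0.205 and -0.073 in thymus mouse 1, at -0.011 and -0.04 in mouse 3, and at -0.127 and 0.14 in mouse 4. These mice did not share a direction (0.02 ± 0.05, SD, n = 3; limma, adjusted p = 0.946; 95% interval -0.10 to 0.13). Among all thymus probes, limma called 0 of 20130, which is 0%, and 725 had an unadjusted p under 0.05.

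The spleen and thymus ratios were then compared in 1 limma fit with a mean per organ. The Gzma ratio was higher in spleen by 0.43 (SE 0.10; 95% interval 0.22 to 0.65; adjusted p = 0.0222), and every spleen mouse lay above every thymus mouse. The spleen part of this difference was known when the set was taken up, so the test is not an independent one. In the paired fit, with the mouse as a replicate block over the 3 mice measured in both organs, the difference was 0.461 (SE 0.12) with an adjusted p of 0.104, so the call did not hold there. It also ended without mouse 3 (0.38, adjusted p = 0.152) and without mouse 4 (0.39, adjusted p = 0.188), and with the Cy3 arrays turned the difference was -0.05 (adjusted p = 0.976). For Gzmm, spleen minus thymus was -0.14 (SE 0.07; adjusted p = 0.224; 95% interval -0.30 to 0.02). For Gzmc it was 1.17 (SE 0.28), given with no test because its spleen part is the value that drew attention to the set. Of Gzma and Gzmm, the 2 members tested here, 1 passed, beside 13.5% of all 19948 tested probes (5.64% higher in spleen and 7.86% lower), and nothing is read from that count either.

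**Figure D3:**
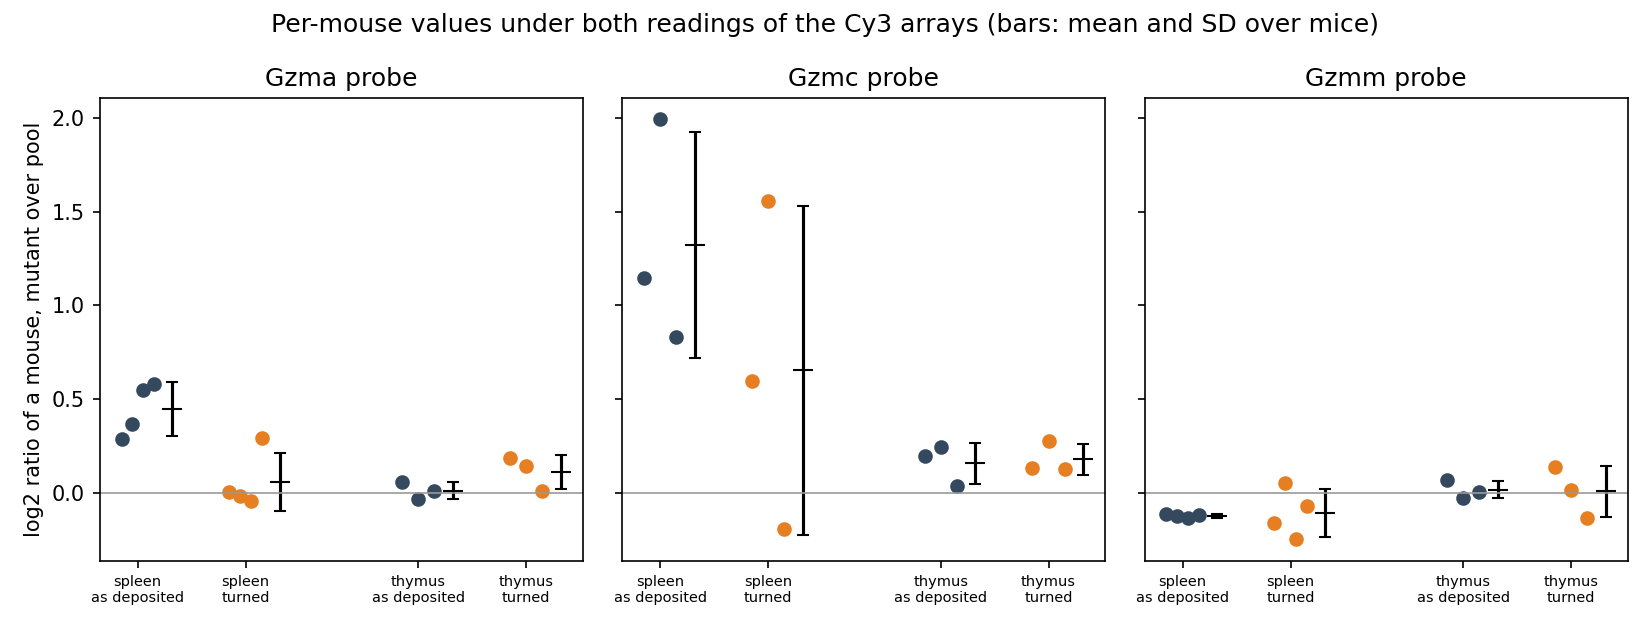
The log2 ratio of each mouse (vertical axis, mutant over wild-type pool) for the 3 granzyme probes with the Cy3 arrays as deposited (dark) and with their sign turned (orange), in spleen and in thymus without mouse 2. Bars show the mean and SD over mice; Gzma in spleen moves from 0.45 to 0.06 and Gzmc in spleen from 1.32 to 0.65, with 1 mouse below 0, while Gzmm and the thymus values move less.

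Other genes of the lytic granule were examined as a list covering granule proteins, the transport and fusion machinery, and the death ligands Fasl and Tnfsf10. The annotation named 13 of its 20 genes, at 21 probes. In spleen 5 of the 21 probes were higher and 2 lower past the threshold in limma, or 33.3% against 25.3% of all probes, with a median log2 ratio of 0.11 against 0.04 for all probes. The probe of Nkg7, a membrane protein of NK and cytotoxic T cell granules, had the highest mean of the list: it was above 0 on all 8 spleen arrays, at 0.871 and 0.92 in mouse 1, 1.004 and 0.624 in mouse 2, 1.244 and 0.131 in mouse 3, and 0.826 and 0.519 in mouse 4. Nkg7 had a mean of 0.77 ± 0.11 (SD, n = 4; limma, adjusted p = 0.00401), and of 0.22 (adjusted p = 0.278) with the Cy3 arrays turned. In the other direction stood Fasl, the ligand of the death receptor Fas, whose probe 14 was at -0.80 ± 0.16 (SD, n = 4; limma, adjusted p = 0.00401), while its probe 20388 was at -0.12 (adjusted p = 0.244). Ap3b1, a subunit of the AP-3 complex that sorts proteins to lysosome-like granules, had 4 probes that disagreed: probe 15259 was lower at -0.55 ± 0.09 (SD, n = 4; limma, adjusted p = 0.00431), probes 6286 and 6415 were higher at 0.29 and 0.32, and probe 6414, at 0.11, did not pass. With the running median along the probe IDs removed, 2 probes of the list were higher and 2 lower, and without mouse 2 or mouse 4, 1 was higher and 2 lower. No probe of the list passed in thymus, where its median was 0.02.

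Among the inhibitors and substrates of granzymes, 8 of 16 genes were named, at 9 probes. The only call in spleen (11.1% of the probes, against 25.3% of all) was Serpinb6a, a serpin that inhibits serine proteases, at probe 5250 (-0.80 ± 0.31, SD, n = 4; limma, adjusted p = 0.00772), and its other probe was at 0.22 (adjusted p = 0.123). The substrates Bid, Dffa, Set, Apex1, Lmnb1 and Parp1 lay between -0.05 and 0.20 without passing. Of 17 tested probes for cytokine receptors, cytokines and transcription factors that govern cytotoxic lymphocytes, 1 was higher and 2 lower, or 17.6% against 25.3% of all probes. The higher probe was Il15ra, the chain that presents the NK cell cytokine IL-15, at 0.55 ± 0.33 (SD, n = 4; limma, adjusted p = 0.0278). The lower probes were Il18, a cytokine that activates NK cells, at -0.67 ± 0.14 (SD, n = 4; adjusted p = 0.00413), and Il2rb, the receptor chain shared by IL-2 and IL-15, at -0.66 ± 0.20 (SD, n = 4; adjusted p = 0.00594). A second Il2rb probe was at -0.03. Without mouse 2 or mouse 3 no probe of this list was higher and 2 were lower, and with the running median removed 4 were higher and 2 lower.

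Markers of cells that carry granzymes, or that a spleen or thymus also holds, are given beside these values; their part in the granzyme ratios was not tested. For NK cells 6 of 23 genes were named, none of them Ncr1 or a gene of the Klr receptors. Of their 8 spleen probes 3 passed, or 37.5% against 25.3% of all probes. Ccl5, a chemokine of cytotoxic lymphocytes, was higher at 0.25 ± 0.03, as was the Fc receptor chain Fcer1g at 0.26 ± 0.13. The adaptor Tyrobp was lower at -0.52 ± 0.10 (SD, n = 4 for each; limma, adjusted p = 0.0270, 0.0471 and 0.00534). Without any 1 of the 4 mice, 0 of the 8 probes were higher and 1 was lower, as when the pool's variance was added. With the Cy3 arrays turned none of them passed, with Ccl5 at -0.06, Fcer1g at -0.03 and Tyrobp at -0.17. Of 18 T cell probes 3 were higher and 3 lower, or 33.3% against 25.3% of all probes, with the signalling adaptor Lat at 0.67 ± 0.08 and the co-receptor Cd28 at -0.82 ± 0.20 (SD, n = 4; limma, adjusted p = 0.00401 and 0.00412). The other Lat probe was at 0.17 and did not pass. Of the T cell receptor chain Cd247, probe 6879 was higher at 0.45 ± 0.05 (SD, n = 3; limma, adjusted p = 0.0143), while its other 3 probes, at -0.23, -0.15 and 0.18, did not pass. The Cd8b1 probe, which marks cytotoxic T cells, was at 0.19 (limma, adjusted p = 0.0703). Without mouse 2, 1 T cell probe was higher and 1 lower, and without mouse 4, 1 was higher and 2 lower. NK and T cell medians were -0.08 and 0.04, beside 0.04 for all probes.

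Proteases of mast cells, basophils and neutrophils are encoded beside the Gzmc cluster, and of 9 such neighbours 1 was named: Mcpt8, a basophil protease, at -0.15 ± 0.41 in spleen (SD, n = 4; limma, adjusted p = 0.494). Of 3 mast cell and basophil probes 1 passed, or 33.3% against 25.3% of all probes. That probe, carboxypeptidase Cpa3, was higher at 0.40 ± 0.25 (SD, n = 4; limma, adjusted p = 0.0397). With the running median removed it was at 0.11 and did not pass. It passed without mouse 3 but not without mouse 1, 2 or 4. None of the 5 B cell probes passed (0% against 25.3% of all probes). Among 6 macrophage probes 2 passed, or 33.3% against 25.3% of all probes. They were the complement genes C1qc and C1qb, in opposite directions, at 0.63 ± 0.11 and -0.42 ± 0.05 (SD, n = 4; limma, adjusted p = 0.00410 and 0.00631). Of 6 cortical thymocyte probes 2 passed, or 33.3% against 25.3% of all probes. Satb1 was higher at 0.34 ± 0.15 and Bcl11b lower at -0.47 ± 0.05 (SD, n = 4; limma, adjusted p = 0.0265 and 0.00505). The other probes of these genes did not pass, with Satb1 at 0.04 and 0.22 and Bcl11b at 0.26, in the opposite direction to its called probe. The called Satb1 probe was at 0.13 without passing when the running median was removed, and it did not pass without mouse 2, 3 or 4. With so few probes in each, nothing is read from the shares of these lists. With the Cy3 arrays turned, no probe passed in spleen in any list, from the lytic granule genes to the cortical thymocyte markers.

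**Figure D4:**
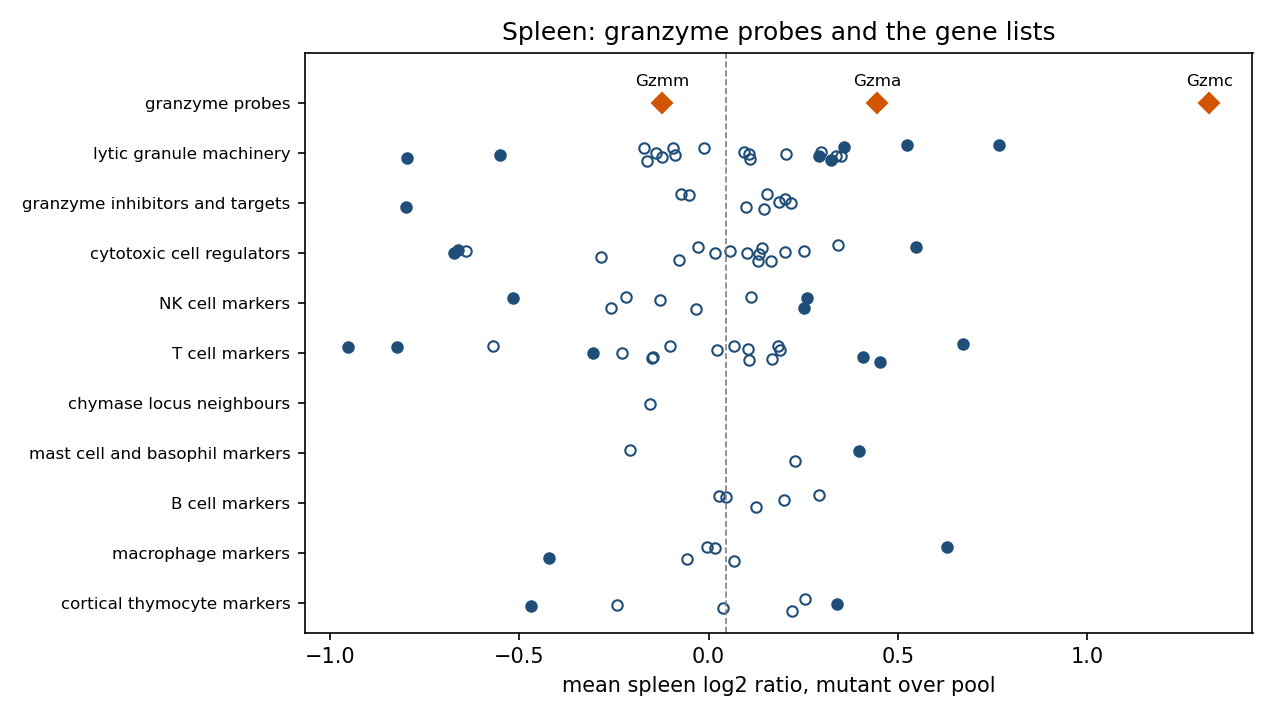
The mean spleen log2 ratio (horizontal axis, mutant over pool) of the 3 granzyme probes (diamonds) and of each tested probe in the gene lists (circles, filled where the adjusted p in limma was under 0.05). Means are over 4 mice, or 3 where a mouse had no value, as for Gzmc. The dashed line is the median of all probes, 0.04; every list with more than 5 probes has members on both sides of it, and Gzmc at 1.32 lies to the right of all of them.

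The probes most like Gzmc were sought by the root mean square difference of the log2 ratios over the 14 arrays used, with at least 10 arrays shared, among 12478 probes with a gene symbol. They were Ppm1f, Phf24, Ctrl, Mmachc and Vopp1, at 0.32, 0.33, 0.35, 0.36 and 0.37 over 11 or 12 arrays, against a median of 1.23 over all probes compared. Gzma, at 1.004, ranked 1438 in likeness to Gzmc, and Gzmm, at 1.34, ranked 9221. The arrays share their pool, and the likeness is a description of 1 set of hybridisations. This measure weighs large values most, above all the Gzmc ratio of 3.55 in spleen mouse 3 in Cy5. It thus reuses the high spleen values for which the set was chosen, and nothing is read from the ranks.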

How the data were processed

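The authors deposited 1 table of log2 ratios, 20794 probes by 16 two-colour arrays. Labelling with Cy3 or Cy5 was indirect, per the labels' protocols, and the pool held 4 wild-type mice by its channel labels, while the labelling protocol gives another number. Nothing used here states the image analysis or normalization. The log base was read from the size of the values. On each array 25 to 137 probes held 1 constant of 15.1 to 16.9 in size, positive with the mutant in Cy5 and negative in Cy3, which was set to missing. A mouse counted with both arrays, and a probe with at least 3 mice.

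Each organ was fitted alone with limma 3.58.1 in R 4.3.3 against 0, and the difference in 1 fit of both, with Benjamini-Hochberg adjustment over all probes at 0.05. The fits were checked on simulated data with independent noise per mouse and probe. That check held no shared pool, dye or position effect and says nothing about them. The same animals gave both organs, and the paired fit took equal mouse numbers in spleen and thymus as 1 animal. Deviations of a mouse in both organs correlated at -0.05, -0.01 and -0.09, which does not settle whether the numbers match.

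All 12771 annotated probes matched RefSeq (GRCm38.p6) by gene number, used for names and gene order only. Members and lists were chosen with earlier results of these data known. Named were every member and, of each list, up to 3 called probes with the largest ratio and 1 sign in all mice. Their genes' other probes, Ctsw, Cd8b1, Mcpt8 and the granzyme substrates were added after their values were seen. Alternatives changed the fit, mice, orientation, centring, position along the probe IDs (running median over 101), missing values and the pool's variance.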

Additional observations from a re-analysis of the deposited data

Results flagged for a closer look

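As deposited, the Gzma ratio differed between the organs in the limma fit of both: spleen minus thymus was 0.43 on the log2 scale (SE 0.10, adjusted p = 0.0222). All 4 spleen mice lay above all 3 thymus mice. The spleen part was known when the set was taken up, so this is not an independent test. The difference had an adjusted p of 0.104 in the paired fit, 0.152 without mouse 3 and 0.188 without mouse 4 in limma. With the Cy3 arrays turned it was -0.05 (limma, adjusted p = 0.976). Over its alternatives the adjusted p ran from 0.00556 to 0.976. By Dixon's criterion no mouse and no array lay outside its group where at least 4 had a value, the thymus arrays of mouse 2 included. The largest gap for Gzmc in spleen, between its arrays at 3.55 and 1.742, was 0.581 of the range over 6 arrays, below the critical value for that number. Gzmc in spleen had 3 mice and was checked across arrays only. The arrays of a mouse are not independent and come from both dye orientations, so this check does not clear the array at 3.55.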

How the results depend on the processing

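Over the alternatives, all 13 for Gzmm in spleen, all 13 for each member in thymus and all 14 for the Gzmm difference left the call unchanged, and for Gzma in spleen and its difference 10 of 13 and 9 of 14 did. With the Cy3 arrays turned, spleen had 1 call over all probes instead of 5086, and the difference had 0 calls instead of 2692. Gzma was at 0.059 in spleen and reversed to -0.052 for the difference, without passing in either. Gzmc was at 0.65 and 0.47. With the pool's variance added, 1689 probes passed in spleen and 187 for the difference. Gzma was at 0.45 and 0.43 there, with adjusted p of 0.0599 and 0.123 in limma. In the replicate block fit 0 probes passed for the difference, with 4592 probes at an unadjusted p under 0.05 in limma, and Gzma was at 0.461. The call of Gzmm did not change there. No count of members called is given here. In spleen and for the difference it would include Gzmc, whose values there are a description. With the mean of the probes of a gene, 2198 of 8837 genes passed in spleen and 1100 of 8787 for the difference; fewer features were tested. With thymus mouse 2 included, 4484 probes passed for the difference. For the difference, Gzma passed with the running median removed (limma, adjusted p = 0.0104) and with the constant kept (limma, adjusted p = 0.0257). The share of higher calls in spleen was 52.9%, against 34.6% with the pool's variance added and 43.0% with the running median removed. Fitting both organs together gave 7577 spleen calls.

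Leaving out 1 mouse at a time, with at least 2 mice per probe, gave 1942 to 4523 spleen calls (2076 without mouse 2, 1942 without mouse 4), 0 to 1 in thymus and 0 to 2029 for the difference (2 without mouse 3, 0 without mouse 4). Gzma passed in spleen except without mouse 4, and for the difference except without mouse 3 or mouse 4. Gzma ran from 0.40 to 0.50 in spleen and from 0.38 to 0.51 for the difference, and Gzmc from 0.99 to 1.57 and from 0.87 to 1.35. Except where a step above names it, the cause was not tested.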

Other observations

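The thymus arrays of mouse 2, used in no comparison, were at 0.198 and -0.135 for Gzma, -0.086 and 0.149 for Gzmc, and 0.098 and -0.045 for Gzmm, in Cy5 and Cy3. Their means were 0.03, 0.03 and 0.03, and that of Nkg7 was 0.03 as well, although its arrays stood at 0.373 and -0.31. Over all probes, the sum of this pair lay within 0.01 of its median for 83.5%, against 1.28% to 5.80% in the other 7 pairs.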
